A study of Mus musculus with 9 samples.

Results

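Gene expression was compared between a rapamycin-resistant derivative of the mouse cell line BC3H1 and its untreated, rapamycin-sensitive parent. BC3H1 is an established mouse brain tumour line with myogenic, that is muscle-like, properties. The comparison covered all genes of the array with a usable probe set and used 6 of the 9 arrays of the series. Total RNA of 3 arrays came from sensitive cells that received the solvent DMSO for 24 h, and that of the other 3 from the resistant cells, called RR1, which grew in 1 uM rapamycin without interruption. RR1 was a single line, derived from BC3H1 over 6 months in 1 uM rapamycin, and every culture received medium with 20% fetal bovine serum and antibiotics. The remaining 3 arrays, from sensitive cells after 24 h in 100 nM rapamycin, entered the fit and are quoted at the side; they share their DMSO controls with the comparison and differ from RR1 in dose and time as well as in line. Resistant and DMSO cells differed in line, in months of culture and in the presence of the drug, and these 3 differences cannot be told apart. Separate cultures are not mentioned for the arrays of a group; p-values therefore reflect array-to-array spread, and this spread may be technical.

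Rapamycin binds the protein FKBP12, and the pair inhibits the kinase mTOR in its complex 1, which couples nutrients and growth factors to ribosome production, translation, nucleotide and lipid synthesis and the restraint of autophagy. The transcription factor Myc drives many of the same growth programmes at the level of RNA. Interferons act on neighbouring and producing cells through STAT and IRF factors, which bind response elements in the promoters of antiviral and antigen presentation genes. Cells of muscle type also depend on the factor SRF, which binds CArG boxes in front of contractile genes.

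Signals were the deposited linear intensities, tested as log2(signal + 16). Of 18193 genes with a probe set, 12715 passed the filter, a mean signal above about 22.2 over the 9 arrays. A gene is called where the adjusted p of the fit across all genes (limma, Benjamini-Hochberg) was under 0.05. Log2 changes are given ± the standard error of the fit (n = 3 arrays a group), and a change always means resistant minus DMSO cells. The median signal over probe sets was 33.3 to 44.2 on 8 arrays and 66.0 on the third DMSO array, where 17.4% of probe sets lay below 16 against 29.4% to 34.8% elsewhere. That array stands apart, and counts are also given without it. For Actb the log2 difference of 3-prime minus 5-prime control probe sets was 0.172 ± 0.0078 (SD, n = 3) in DMSO cells and 0.334 ± 0.016 in resistant cells (exact permutation p = 0.1, two-sided, the smallest that 3 against 3 arrays allow); its part in the results was not tested.

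The muscle-like character of the line, and markers of fibroblasts, were visible in both groups, with lower summed marker signals in RR1. Some single markers went the other way. The summed signal of 12 smooth muscle and pericyte markers was 24160 to 32130 on the DMSO arrays and 8219 to 10050 on the resistant arrays, although the late marker Myh11 reached at most 26.1 and the cofactor Myocd at most 17.96 on the 6 arrays. For 10 fibroblast markers the sums were 31360 to 38260 and 16810 to 18620, nearly all of it from the collagens Col1a1, Col1a2 and Col3a1. The 10 skeletal myoblast markers summed to 2710 to 3142 and 1715 to 1801. Of the 7 tested, 4 were called lower and 2 higher. The mean of Chrna1 went from 529 to 15.2, that of Myog from 6.50 to 98.9 and that of Tnnt3 from 36.7 to 131. Des counts in both muscle sums. Of 10 tested smooth muscle and pericyte markers 7 were called lower and 0 higher, although the mean of Cspg4 went from 25.4 to 52.7. Myf5, a factor of committed myoblasts, was present at 741, 806 and 414 on the DMSO arrays and 491, 508 and 587 on the resistant arrays (-0.25 ± 0.18, not called, but called at -0.54 without the third DMSO array), while Myod1 reached at most 38.4 on the 6 arrays. Markers of other cell types were low, and their sums were highest on the third DMSO array. Single markers differed, among them the glial Slc1a3, at 67.8, 61.1 and 72.5 on the DMSO arrays and 212, 141 and 117 on the resistant arrays. Of the 6 glial markers tested 1 was called higher and 2 lower. The sums over DMSO and resistant arrays were 141 to 389 and 145 to 182 for 10 endothelial, 313 to 681 and 208 to 278 for 10 epithelial, 369.6 to 741.5 and 267 to 336 for 10 neuronal, and 308 to 626 and 229.9 to 380.9 for 11 glial markers. For 9 leukocyte markers they were 897 to 1386 and 378 to 462; Ptprc, which all leukocytes carry, reached at most 16.8 on 5 of the 6 arrays and 74.6 on the third DMSO array, and the larger part came from Cd14, at 599.6, 582 and 638 against 134, 152 and 150.0. The part of these markers in the results was not tested.

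Of the 12715 genes, 6581 (51.8%) were called, 3299 (25.9%) higher and 3282 (25.8%) lower in resistant cells. Without the third DMSO array the counts were 3379 and 3244. The list counts below are to be read beside the shares of 25.9% higher and 25.8% lower. The sides differed in depth. At least 2-fold changes numbered 693 (5.45%) higher and 1270 (9.99%) lower, at least 8-fold changes 11 and 115, and at least 16-fold changes 1 and 42. The 6 arrays fell into groups without overlap for 7446 genes (58.6%). The median change of all genes was -0.065; centring the arrays on their 75th percentile raised it to 0.031 and gave 3777 higher and 2756 lower, so changes are to be read against that shift. A total of 384 tested genes were below the filter limit on all 3 resistant arrays and 33 on all 3 DMSO arrays. These counts are not like for like. The filter used the mean over 9 arrays, 6 of them from sensitive cells, so genes present only in sensitive cells passed it more easily. The third DMSO array also had fewer signals near the floor. For the genes in both counts the pseudocount limits the change.

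**Figure D1:**
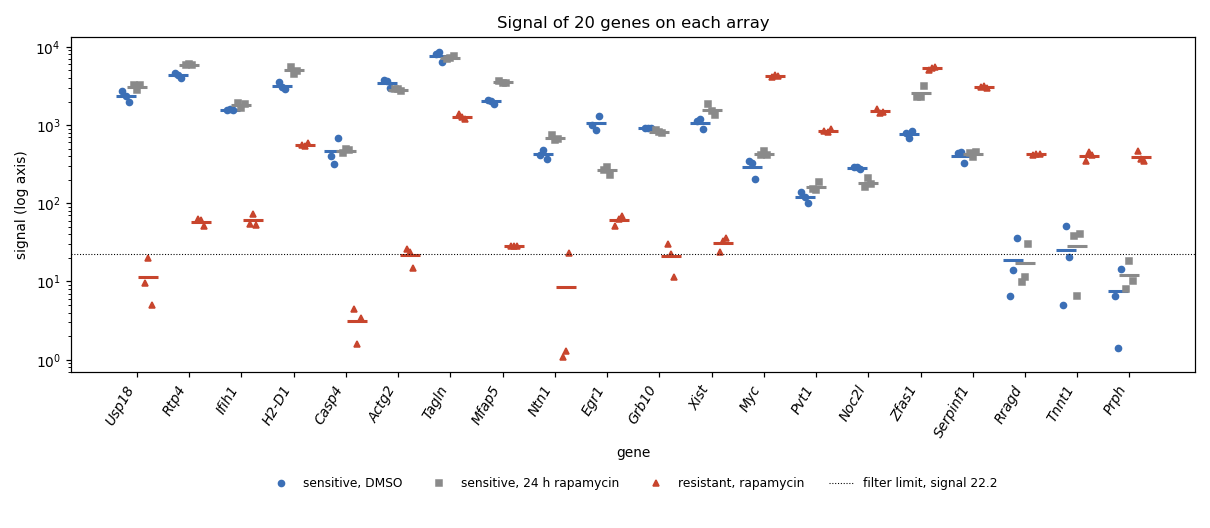
Signal on each of the 9 arrays for 20 genes, on a log axis. Circles are DMSO cells, squares sensitive cells after 24 h of rapamycin and triangles resistant cells. Short lines give the mean of 3 arrays, and a dotted line marks the filter limit of 22.2. The text describes these genes except Egr1 (log2 change -3.78) and Noc2l (2.34), which are named only here. The 12 genes to the left, Usp18 to Xist, are lower on all 3 resistant arrays, and the 8 to the right, Myc to Prph, are higher on all 3; the 24 h rapamycin arrays lie near the DMSO arrays for most of them, with Egr1 lower and Zfas1 higher.

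Interferon-linked genes were lower in resistant cells. Of 49 tested interferon-induced effectors 44 were lower and none higher, with a median change of -3.08 against -0.065 for all genes (limma; none was higher at an unadjusted p under 0.05 either, and Ifitm1 was called higher under quantile normalization and without the variance trend), and of 27 genes of interferon signalling and sensing 16 were lower and 1 higher (median -0.65). The higher one was the DNA sensor Cgas (0.40 ± 0.13), which lost its call without the first or the second resistant array. In bulk RNA, fewer cells that express a gene and less RNA per cell cannot be told apart. Rtp4, an interferon-induced receptor transporter protein, had signals of 4595, 4424 and 3992 on the DMSO arrays and 62.3, 61.9 and 51.1 on the resistant arrays. The groups did not overlap, and the change was -5.87 ± 0.08 (limma adjusted p = 3.17e-18). The resistant arrays kept a residual Rtp4 signal above the filter limit, whereas Ifi27l2a, at 2813, 2141 and 2945, went to 6.55, 17.98 and 19.6, below the limit on all 3. Falls of 5 or more on the log2 scale were shared by the RNA-degrading 2-5A system (Oas1a, Oasl2), the immunity-related GTPases Irgm2 and Iigp1, and the ubiquitin ligase Trim30a. The IFIT proteins, which bind viral RNA, were lower too, with -4.84 ± 0.14 for Ifit3 and -4.49 ± 0.11 for Ifit1, as were the guanylate-binding proteins Gbp7 (-4.29 ± 0.20) and Gbp2b (-4.11 ± 0.16).

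Values ranged widely within both lists. Among the factors and sensors, Irf7, the inducible interferon regulatory factor, went from 713, 661 and 719 to 25.7, 29.0 and 18.6, and Irf9, the DNA-binding subunit of the complex that type I interferon activates, changed by -3.48 ± 0.12. The cytosolic RNA sensors Ifih1 (MDA5) and Ddx58 (RIG-I) changed by -4.39 ± 0.10 and -3.03 ± 0.09, the DNA sensor adaptor Sting1 by -2.44 ± 0.18 and Stat2 by -2.44 ± 0.19. Usp18, a negative regulator of the type I receptor, changed by -6.45 ± 0.15. The interferon gamma receptor chain Ifngr1 was lower (-1.58 ± 0.11), while the type I receptor chains Ifnar1 (-0.12 ± 0.11) and Ifnar2 (0.12 ± 0.10) and the adaptor Mavs (-0.10 ± 0.10) did not pass the test. Some effectors fell little, among them Isg20 (-0.47 ± 0.09) and Pml (-0.85 ± 0.10). The 5 effectors that did not pass were Ifit2 (-0.15 ± 0.11), Oasl1 (-0.18 ± 0.28), Ifitm1 (0.48 ± 0.33), Ifitm2 (0.08 ± 0.08) and Sp110 (-0.35 ± 0.42). Sp110 was called lower with a pseudocount of 64 (-0.7) and when its probe sets were averaged (-0.97). In sensitive cells after 24 h of rapamycin, against the same DMSO arrays, 27 of the 49 effectors were called higher and 1 lower (background 20.4% and 15.2%), with a median of 0.40.

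Promoter sequence was looked at next to these values. RefSeq promoter windows of 300 bases (250 before and 50 after the start, GRCm38.p6) were found for 10219 of the tested genes. The interferon-stimulated response element was searched as GAAA, any 2 bases and GAAA again, on both strands. It stood in 18 of the 38 effectors with a window (47.4%), against 3.54% of tested genes and 3.44% of all 32851 windows. Among genes at least 8-fold lower 20 of 83 windows (24.1%) held it, among genes at least 2-fold lower 8.54%, and among genes at least 2-fold higher 2.27%. The windows around the element are shown for the 3 effectors with the largest change among those that hold it, with the motif in capitals, since they show its place close to the start of the gene. The Trim30a stretch (chr7:104465194-104465279, minus strand) has it on the opposite strand, beginning 36 bases before the start; Oas1a (chr5:120907526-120907589, minus strand) holds 2 overlapping copies, and Irgm2 (chr11:58214863-58214972, plus strand) has 1 copy 64 bases before the start. None of the motifs searched here contains another, and a match describes these letters only.
Trim30a: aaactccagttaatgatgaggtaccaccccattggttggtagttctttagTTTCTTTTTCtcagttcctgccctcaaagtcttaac
Oas1a: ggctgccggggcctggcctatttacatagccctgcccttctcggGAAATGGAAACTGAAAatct
Irgm2: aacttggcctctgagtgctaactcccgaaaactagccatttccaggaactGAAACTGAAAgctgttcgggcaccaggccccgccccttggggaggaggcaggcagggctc

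Antigen presentation and inflammatory genes were low together with the effectors. Of 17 tested genes of MHC class I presentation 14 were lower and 1 higher (median -1.18). The heavy chain H2-D1 had 3533, 3075 and 2922 on the DMSO arrays and 554, 542 and 590.0 on the resistant arrays, without overlap (-2.46 ± 0.09). The peptide transporter Tap1, its partner Tap2 and the loading chaperone Tapbp changed by -2.39 ± 0.27, -3.16 ± 0.19 and -2.24 ± 0.08, and the immunoproteasome subunits Psmb8 and Psmb9 by -1.55 ± 0.32 and -1.33 ± 0.27. Nlrc5, a transactivator of these genes, did not pass (-0.29 ± 0.34). The single higher member, the chaperone Canx (0.23 ± 0.08), has probe sets called in both directions and lost its call under 8 alternatives, among them quantile normalization and the fits without the first or the third DMSO array or the second or the third resistant array.

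Among 30 chemokines, cytokines and their receptors 20 were lower and 2 higher, with a median of -1.24; 1 was higher without the first DMSO array or the third resistant array. Csf1, the growth factor of macrophages, fell from 2112, 2188 and 1893 to 474, 429 and 389, with no overlap (-2.22 ± 0.09). Interleukin genes were part of this group, with -2.81 ± 0.27 for Il15, which stimulates natural killer cells, -2.45 ± 0.13 for Il18 and -2.05 ± 0.16 for the interleukin 1 receptor Il1r1. Ccl7 and Cxcl10, which attract monocytes and T cells, changed by -2.52 ± 0.14 and -2.49 ± 0.22. Of 19 NF-kappaB factors and feedback genes 11 were lower and 2 higher, among them the ubiquitin-editing inhibitor Tnfaip3 (-1.63 ± 0.19) and Birc3 (-2.48 ± 0.34), an inhibitor of cell death; the stricter filter left 7 lower, and the fit without the third resistant array 1 higher. Of 10 complement genes 5 were lower and 1 higher: C1s1 (-2.12 ± 0.14), Cd59a (-1.95 ± 0.11) and Masp1 (-1.28 ± 0.10) were lower, and clusterin, Clu, an extracellular chaperone, rose from 147, 156 and 243 to 1017, 1123 and 1032 (2.47 ± 0.14).

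Cell death genes followed. Of 32 genes of the BCL2 family, caspases and partners 18 were lower and 6 higher (3 without the third resistant array), with a median of -0.48. Casp4, the inflammatory caspase that senses bacterial lipopolysaccharide, had 403, 320.1 and 682 on the DMSO arrays, the third being the highest, and 4.43, 1.58 and 3.41 on the resistant arrays. These groups lay far apart (-4.59 ± 0.22), and the resistant signals were below the limit. Casp12 (-2.18 ± 0.09), the initiator Casp8 (-1.56 ± 0.08), the pore protein Gsdmd (-1.16 ± 0.10) and the necroptosis effector Mlkl (-0.89 ± 0.10) were lower as well. Bcl2l11 (BIM), which promotes apoptosis, rose by 1.26 ± 0.10, and Bcl2 changed by -0.03 ± 0.14 without passing. Of 27 genes of p53 and its targets 11 were lower and 9 higher. Ccng1 (cyclin G1) had the largest change of these, -2.23 ± 0.10.

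**Figure D2:**
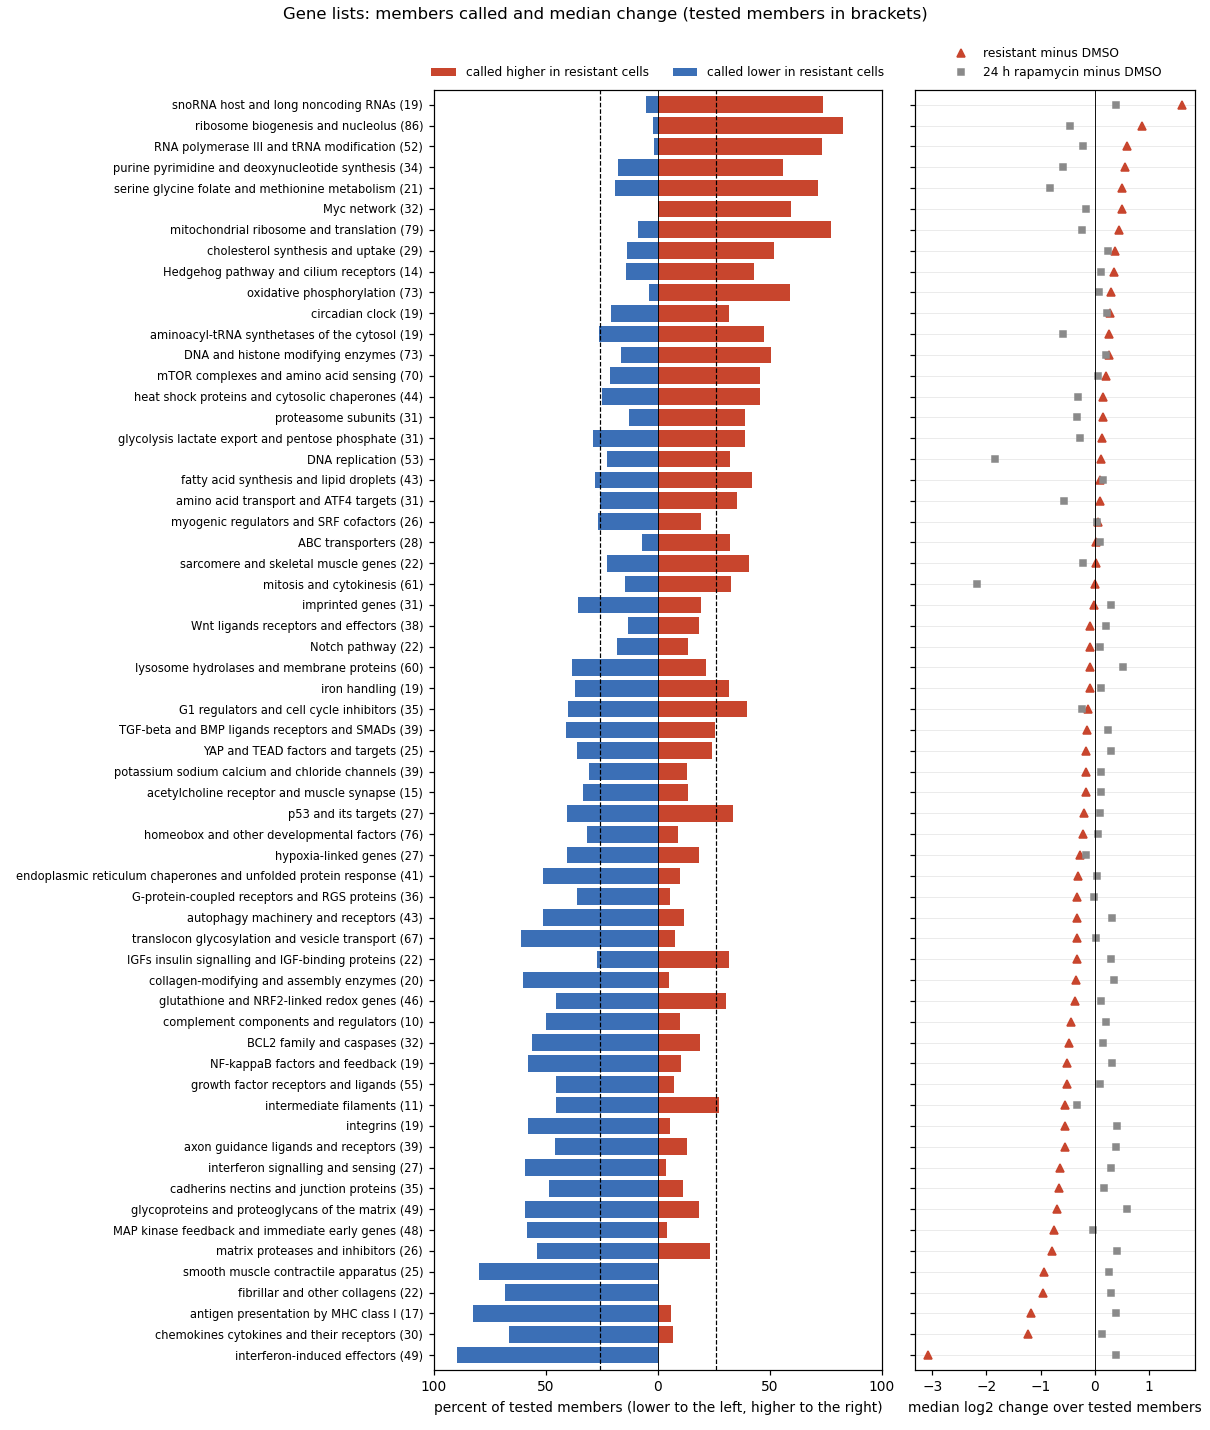
Left, percent of tested members called higher (red, to the right) and lower (blue, to the left) in resistant cells for the gene lists reported, with dashed lines at the share over all genes, 25.9% and 25.8%; right, median log2 change of the members in resistant cells (triangles) and after 24 h of rapamycin in sensitive cells (squares), both against the same DMSO arrays. Interferon effectors lie lowest (median -3.08) and the noncoding snoRNA hosts highest (1.62), and DNA replication and mitosis genes lie near 0 in resistant cells and at -1.84 and -2.17 after 24 h.

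Among genes with signals above 100 on all DMSO arrays the largest rise was in Myc. Myc had 345, 325 and 207 on the DMSO arrays, the third array being the lowest, and 4147, 4342 and 4193 on the resistant arrays, with no overlap (3.81 ± 0.13). The neighbouring noncoding gene Pvt1 rose from 138, 120.1 and 99.5 to 828, 807 and 902 (2.68 ± 0.14). In the Myc network, which gathers its partners and well-known targets, 19 of 32 were higher and none lower (1 lower without the third DMSO array, 2 when a gene's probe sets were averaged), with a median of 0.50; no member was lower at an unadjusted p under 0.05 in limma. Max, the obligate dimer partner, changed by 1.32 ± 0.36, and the Max-binding antagonist Mxi1 by 2.01 ± 0.16. Cad, which starts pyrimidine synthesis, and Cdca7 rose by 2.23 ± 0.14 and 2.21 ± 0.18, and the ATPases Ruvbl1 and Ruvbl2 by 1.15 ± 0.09 and 1.71 ± 0.10. Mycn (-0.68 ± 0.38) and the telomerase subunit Tert (0.67 ± 0.45) did not pass.

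Most genes for making ribosomes rose. Of 86 ribosome biogenesis genes 71 were higher and 2 lower, with a median of 0.87, against a median of -0.46 in sensitive cells after 24 h of rapamycin. Nol9, a kinase of pre-ribosomal RNA processing, had 288, 247 and 366 and then 1143, 1138 and 1283, and Lyar, a nucleolar growth factor, 1023, 1097 and 927 and then 3697, 3748 and 3521. Both pairs of groups were separate, with changes of 1.94 ± 0.14 and 1.83 ± 0.09. Polr1b, a core subunit of RNA polymerase I, rose by 1.68 ± 0.12, and the assembly factors Nolc1 and Brix1 by 1.71 ± 0.10 and 1.76 ± 0.07. The lower members were Nol6 (-0.87 ± 0.20) and Las1l (-0.90 ± 0.09), and Bop1, an assembly factor, was among 13 that did not pass (0.02 ± 0.08).

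The E-box CACGTG, the site of Myc and Max, was found in 22.4% of the 76 ribosome biogenesis windows, against 11.3% of tested genes and 7.15% of all windows. Other lists held it as often, cholesterol synthesis in 26.1% and MHC class I presentation in 21.4% of windows. Of genes at least 2-fold higher 14.8% held it, of genes at least 8-fold lower 3.61%, and of the interferon effectors 0 of 38. The members with the largest change among those that hold it were Nop2 (0.97 ± 0.09), an RNA methyltransferase, Imp4 (0.87 ± 0.09) and Rpf2 (0.86 ± 0.09), both assembly factors. Their windows are shown because the E-box, in capitals, begins 60, 121 and 26 bases before the starts (Nop2 chr6:125131773-125131878, plus strand; Imp4 chr1:34439658-34439763, plus strand; Rpf2 chr10:40246980-40247055, minus strand).
Nop2: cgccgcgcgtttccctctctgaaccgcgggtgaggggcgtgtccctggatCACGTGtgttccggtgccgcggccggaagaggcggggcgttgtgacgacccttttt
Imp4: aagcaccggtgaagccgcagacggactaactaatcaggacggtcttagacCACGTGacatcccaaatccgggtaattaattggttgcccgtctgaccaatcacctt
Rpf2: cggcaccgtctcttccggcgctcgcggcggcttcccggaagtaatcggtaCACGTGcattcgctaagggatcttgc

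Other parts of the translation machinery were also higher. Of 52 genes of RNA polymerase III and tRNA modification 38 were higher and 1 lower (median 0.59), including the pseudouridine synthases Pus7 (1.91 ± 0.12) and Pus7l (1.38 ± 0.13), the RNase P subunits Pop1 (1.87 ± 0.28) and Rpp14 (1.50 ± 0.10), and the polymerase subunits Polr3a (1.27 ± 0.12) and Polr3e (1.33 ± 0.13). The mitochondrial ribosome had 61 of 79 higher and 7 lower (3 lower with 75th percentile centring, 4 without the first or the second DMSO or the first or the second resistant array), with a median of 0.45; Mrpl13 rose by 1.53 ± 0.08 and Mrps35 by 1.32 ± 0.09. Cytosolic aminoacyl-tRNA synthetases split into 9 higher and 5 lower of 19 (3 lower without the first or the second DMSO array or the third resistant array). Tars, which charges threonine, rose by 1.87 ± 0.07 and Eprs by 1.23 ± 0.09, while Hars and Nars were lower, -0.63 ± 0.08 and -0.51 ± 0.08.

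Host transcripts of small nucleolar RNAs rose with these groups. Of 19 tested snoRNA host and long noncoding genes 14 were higher and 1 lower, with the highest median of all lists, 1.62. Gas5 had 1388, 1337 and 1197 on the DMSO arrays and 5808, 6031 and 6237 on the resistant arrays, and Zfas1 802, 675 and 829.7 and 5074, 5384 and 5463. In both genes the lowest resistant array was far above the highest DMSO array (2.19 ± 0.08 and 2.77 ± 0.11). Snhg6, Dancr, Snhg12, Snhg1 and Snhg5 rose by 1.70 to 2.18. After 24 h of rapamycin Zfas1 and Gas5 were also higher than in DMSO cells, by 1.72 and 1.08, while Snhg5 and Snhg3 changed by -0.31 and -0.41. The one lower member was Xist (-4.52 ± 0.14).

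Precursor pathways were higher as well. In nucleotide synthesis 19 of 34 were higher and 6 lower (median 0.56), with the purine enzymes Ppat (1.52 ± 0.14), Gart (1.35 ± 0.08) and Pfas (1.15 ± 0.11) and the dCTP pyrophosphatase Dctpp1, which went from 1191, 1223 and 1181 to 3891, 3895 and 4150 (1.72 ± 0.08). Serine, glycine, folate and methionine genes were higher in 15 of 21 and lower in 4 (2 without the second DMSO array or the first or the third resistant array). The folate carriers Slc25a32 (mitochondrial) and Slc19a1 (plasma membrane) rose by 1.72 ± 0.10 and 1.28 ± 0.16, and spermidine synthase Srm and ornithine decarboxylase Odc1, which make polyamines, by 1.58 ± 0.08 and 0.97 ± 0.07. Cth, the last enzyme of the route from homocysteine to cysteine, was lower (-1.39 ± 0.09). The list of amino acid transport and ATF4 targets was mixed, with 11 higher and 8 lower of 31: Got1 (1.29 ± 0.09), Gpt2 (1.27 ± 0.10) and the cationic carrier Slc7a1 (1.04 ± 0.10) were higher, and the stress genes Atf5 (-1.59 ± 0.14), Nupr1 (-1.58 ± 0.09), Chac1 (-1.18 ± 0.09) and Ddit3 (-0.72 ± 0.15) lower.

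In carbon metabolism 12 of 31 glycolysis and pentose phosphate genes were higher and 9 lower. Transketolase, Tkt, rose by 1.67 ± 0.15 and the lactate carrier Slc16a1 by 1.20 ± 0.08, and Pdk1 and Pdk4, which both inhibit pyruvate dehydrogenase, moved in opposite directions (1.36 ± 0.10 and -1.38 ± 0.09). Oxidative phosphorylation had 43 of 73 higher and 3 lower, with a median of 0.30 (0.18 under quantile normalization) and no member at 2-fold; quantile normalization gave 39 and 11, and the lower count was 1 without the first DMSO or first resistant array and 6 without the third DMSO array. Hypoxia-linked genes were lower in 11 of 27 and higher in 5. Their largest change was in Tmem45a, a membrane protein, with 468, 501 and 485 on the DMSO arrays and 2.29, 1.67 and 0.994 on the resistant arrays. Cholesterol genes were higher in 15 of 29 and lower in 4, among them Idi1 (1.57 ± 0.11), Mvd (1.20 ± 0.14) and Fdps (1.05 ± 0.08) of the mevalonate pathway, with the exporter of lysosomal cholesterol Npc1 lower (-1.25 ± 0.20). Of 43 genes of fatty acid synthesis and lipid droplets 18 were higher and 12 lower. Plin2, the coat protein of droplets, was lower (-1.93 ± 0.08) and the fatty acid binding protein Fabp5 higher (1.22 ± 0.08).

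The pathway of the drug showed changes in both directions. Of 70 genes of mTOR complexes and amino acid sensing 32 were higher and 15 lower. Rragd, of the Rag GTPases that bring mTOR complex 1 to the lysosome surface, had 6.48, 14.01 and 35.8 on the DMSO arrays and 411, 425 and 427 on the resistant arrays. The lowest resistant signal was over 10 times the highest DMSO signal, and the change was 3.74 ± 0.33. Rictor of complex 2 rose (1.59 ± 0.12), and its partner Prr5l (-1.26 ± 0.18), the substrate kinase Sgk1 (-1.90 ± 0.09) and the arginine sensor Castor1 (-1.97 ± 0.25) were lower. Of the inhibitors of translation, Pdcd4, which binds eIF4A, rose by 1.52 ± 0.10. Among the FK506-binding proteins Fkbp4 rose (1.56 ± 0.11), and the endoplasmic reticulum members Fkbp7 and Fkbp14 fell (-1.73 ± 0.09 and -2.37 ± 0.11). Rptor (0.10 ± 0.13), Mlst8 (0.12 ± 0.18) and the inhibitor Tsc2 (-0.04 ± 0.15) did not pass. ABC transporters were higher in 9 of 28 and lower in 2 (4 without the first DMSO array), the drug pump Abcb1a with 142, 84.1 and 93.03 on the DMSO arrays and 3.08, 14.5 and 9.01 on the resistant arrays (-2.29 ± 0.33).

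Smooth muscle genes fell. Of 25 tested genes of the contractile apparatus 20 were lower and none higher, with a median of -0.93 (1 higher with 75th percentile centring, and none at an unadjusted p under 0.05 in limma). Actg2, smooth muscle gamma actin, had 3778, 3685 and 2975 on the DMSO arrays and 26.0, 23.9 and 14.9 on the resistant arrays, and Tagln, which binds actin, 7998, 8475 and 6318 and 1380, 1254 and 1195. In both the groups were separate; Tagln kept a bright signal, while 2 of the 3 Actg2 signals were only just above the limit. The change was -6.54 ± 0.11 and -2.55 ± 0.10. Myl9 and Mylk, the regulatory light chain of myosin and its kinase, changed by -2.34 ± 0.09 and -1.17 ± 0.30, calponin 2, Cnn2, by -1.49 ± 0.11, and filamin, Flna, by -1.27 ± 0.08.

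The CArG box of SRF (its name stands for 2 C bases, 6 A or T bases and 2 G bases, both strands) was in 4 of 23 windows of this list (17.4%), in 10.8% of those of MAP kinase feedback and immediate early genes and in 1.6% of tested genes, with 1.63% of all windows. The 3 members with the largest change that hold it are shown, motif in capitals, to set the sequence beside the fall of Myl9, of Cnn2 and of the light chain Myl6 (-0.43 ± 0.11); the windows lie at chr2:156775253-156775362 (plus strand), chr10:79988494-79988599 (plus strand) and chr10:128493010-128493109 (minus strand). Srf itself changed by 0.26 ± 0.14 and its cofactor Mrtfa by -0.14 ± 0.11, and neither passed (Srf was called at 0.35 with 75th percentile centring).
Myl9: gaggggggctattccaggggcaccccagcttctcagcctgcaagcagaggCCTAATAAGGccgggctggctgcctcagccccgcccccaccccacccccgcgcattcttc
Cnn2: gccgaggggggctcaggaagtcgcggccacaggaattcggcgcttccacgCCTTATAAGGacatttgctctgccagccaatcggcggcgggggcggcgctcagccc
Myl6: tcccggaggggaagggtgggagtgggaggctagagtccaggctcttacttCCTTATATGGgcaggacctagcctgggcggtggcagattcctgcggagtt

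Skeletal muscle genes did not move as a block. Of 22 sarcomere genes 9 were higher and 5 lower (3 and 3 of those that passed the stricter filter), and of 26 myogenic regulators 5 and 7 (10 higher with 75th percentile centring). The fast troponins Tnnc2, Tnni2 and Tnnt3 and the slow troponin Tnnt1 rose from signals at or near the limit; Tnnc2 had 15.01, 4.47 and 9.43 on the DMSO arrays and 213, 208 and 220.0 on the resistant arrays, and Tnnt1 4.95, 50.5 and 20.6 and 343, 446 and 420.0. Every resistant signal of these 2 genes was above every DMSO signal, with changes of 3.19 ± 0.36 and 3.49 ± 0.40. Tnnc2 lay below the filter limit on all DMSO arrays and was tested only through its resistant arrays. The separation of its groups therefore follows in part from the filter. For both genes the size of the change depends on the pseudocount. The cardiac and skeletal genes Tnnt2 and Acta1 were lower (-1.93 ± 0.15 and -1.95 ± 0.18). Myog, the factor that starts myoblast differentiation, had 1.85, 6.13 and 11.5 on the DMSO arrays and 88.4, 102 and 107 on the resistant arrays (2.37 ± 0.41). All DMSO signals of Myog were below the filter limit, so the size of its change depends on the pseudocount. Musculin, Msc, an inhibitor of factors such as Myog, was lower (-2.13 ± 0.36), as were further inhibitors, Id1, Id2 and Id3 (-0.85 ± 0.09, -1.15 ± 0.10 and -0.92 ± 0.10). Of the acetylcholine receptor and synapse list 5 of 15 were lower and 2 higher; the receptor subunits Chrna1 and Chrnb1 changed by -4.22 ± 0.23 and -1.24 ± 0.12, and agrin, Agrn, which clusters the receptor, by 1.24 ± 0.17.

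Single intermediate filament genes moved in opposite directions. Peripherin, Prph, a filament of peripheral neurons, had 6.52, 1.42 and 14.6 on the DMSO arrays and 471, 365 and 348 on the resistant arrays (4.15 ± 0.32). Its DMSO signals were all below the filter limit, so it was tested only through its resistant arrays and the size of the change depends on the pseudocount (2.68 with a pseudocount of 64 and 5.27 with 4). The neuron markers as a whole did not accompany it: their summed signal, given above, was not higher on the resistant arrays. Keratin 14, Krt14, went from 171, 213 and 229 to 4.44, 3.80 and 1.17 (-3.52 ± 0.25), and nestin, Nes, and vimentin, Vim, were lower (-1.91 ± 0.20 and -0.73 ± 0.11). Of the lamins, Lmna fell (-1.33 ± 0.07) and Lmnb2 rose (1.42 ± 0.20).

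Genes of the extracellular matrix were lower. Of 22 collagen genes 15 were lower and none higher, also at an unadjusted p under 0.05 in limma (1 higher without the third DMSO array), with a median of -0.96. Col8a1 went from 1921, 1870 and 1777 to 221, 198 and 178 and Col11a1 from 221, 286 and 252 to 0.807, 3.70 and 1.34, the latter below the limit, with no overlap in either (-3.13 ± 0.09 and -3.90 ± 0.22). The basement membrane chains Col4a1 and Col4a2 changed by -1.31 ± 0.09 and -1.08 ± 0.09. Lysyl oxidase, Lox, which cross-links collagen and elastin, fell from 5675, 5484 and 4705 to 767, 641 and 753 (-2.85 ± 0.09), and of 20 collagen-modifying genes 12 were lower and 1 higher (none without the first DMSO array or any 1 of the resistant arrays). Of 49 matrix glycoproteins and proteoglycans 29 were lower and 9 higher. Mfap5, a microfibril protein, had 2097, 2058 and 1856 and 28.7, 28.3 and 28.5, the groups being widely separate (-5.50 ± 0.08), and Ecm1 (-3.63 ± 0.09), nidogen Nid1 (-2.67 ± 0.10), decorin Dcn (-2.89 ± 0.19) and Fbln5 (-2.93 ± 0.27) were lower. Fibromodulin, Fmod, and Emilin1 went the other way (2.96 ± 0.35 and 2.44 ± 0.36). The median of the glycoproteins was -0.70, against 0.59 after 24 h of rapamycin, where 29 of the 49 were called higher and 2 lower.

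Proteases and their inhibitors were lower in 14 of 26 and higher in 6 (3 higher without the trend in eBayes). Serpinb2, an inhibitor of plasminogen activators, fell from 1254, 1325 and 1188 to 7.24, 14.02 and 13.1 (-5.54 ± 0.16). Serpinf1 (PEDF), a secreted serpin without inhibitor activity, rose from 439, 456 and 326 to 3034, 3154 and 2986 (2.88 ± 0.11). Both pairs of groups were separate. The sheddases Adam12 and Adam19 changed by -2.41 ± 0.33 and -1.99 ± 0.21 and the membrane protease Mmp14 by -1.11 ± 0.08.

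Adhesion genes were more often lower than higher. Integrins and their partners were lower in 11 of 19 and higher in 1 (2 with 75th percentile centring or quantile normalization), including Itgb1 (-1.14 ± 0.09), Itgav (-1.41 ± 0.10) and the muscle laminin receptor Itga7 (-1.58 ± 0.09). Cadherins and junction genes were lower in 17 of 35 and higher in 4, with a median of -0.66 (-0.29 without the third DMSO array and -0.37 under quantile normalization), with Cdh10 from 313, 329 and 327 to 18.4, 18.2 and 13.3 (-3.38 ± 0.19), N-cadherin Cdh2 at -1.10 ± 0.09 and the protocadherins Pcdh19 and Pcdh7 at -2.91 ± 0.14 and -2.25 ± 0.11. Of the single actin-binding proteins, the monomer buffer Tmsb4x and the severing protein Gsn changed by -2.03 ± 0.10 and -1.77 ± 0.08, while cofilin, Cfl1, did not pass (0.09 ± 0.09).

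Axon guidance genes followed. Of 39 axon guidance genes 18 were lower and 5 higher (8 higher without the third DMSO array), with a median of -0.55 that was -0.28 without that array. Netrin 1, Ntn1, had 415, 478 and 368 on the DMSO arrays and 1.08, 1.29 and 22.9 on the resistant arrays, the highest of which was still far under the lowest DMSO signal (-4.27 ± 0.25). Slit2, Sema3a, the semaphorin co-receptor Nrp1 and Ntn4 changed by -3.08 ± 0.25, -2.80 ± 0.12, -2.06 ± 0.12 and -2.03 ± 0.23, and Sema3b by 1.66 ± 0.31.

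RNAs of growth factor receptors, ligands and feedback genes were more often lower than higher. Of 55 growth factor receptors and ligands 25 were lower and 4 higher, with a median of -0.52. Pdgfrb, a receptor of mural cells, fell from 703, 756 and 728 to 236, 240.1 and 222 (-1.58 ± 0.10), Pdgfra changed by -2.12 ± 0.32 and the EGF receptor ligand Ereg by -2.55 ± 0.20. Vegfb rose (1.99 ± 0.17) and Vegfd fell (-1.83 ± 0.11). Of 48 MAP kinase feedback and immediate early genes 28 were lower and 2 higher (5 higher with 75th percentile centring), with a median of -0.76. The MAP kinase phosphatases Dusp5 and Dusp6 changed by -1.99 ± 0.39 and -1.84 ± 0.16, and Etv4, an ETS factor downstream of the pathway, went from 242, 259 and 254 to 16.9, 9.98 and 17.8 (-3.12 ± 0.21). Atf3 (0.12 ± 0.30), Jund (-0.19 ± 0.11) and Spry1 (-0.12 ± 0.43) did not pass.

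The AP-1 element TGACTCA (TRE, both strands), the site of Fos and Jun dimers, was in 18.1% of windows of genes at least 8-fold lower (15 of 83) and in 8.96% of genes at least 2-fold lower, against 4.91% of tested genes and 3.66% of genes at least 2-fold higher. Its share was 18.4% in interferon effectors (7 of 38) and 5.20% of all windows, while it was in none of the 37 windows of MAP kinase feedback and immediate early genes, the 23 of interferon signalling, the 14 of MHC class I presentation or the 76 of ribosome biogenesis, and in 2 of 23 for smooth muscle and 2 of 23 for cholesterol genes. Of the dimer genes, Fos and Junb changed by -2.58 ± 0.19 and -1.71 ± 0.10.

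**Figure D3:**
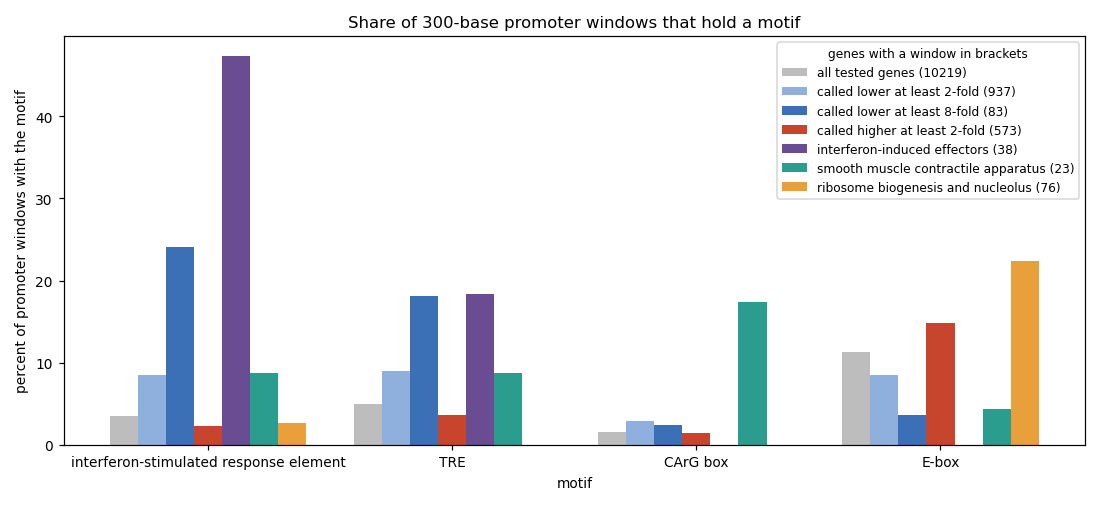
Bars give the percent of 300-base RefSeq promoter windows that hold each of 4 motifs, for all tested genes with a window, for genes called at least 2-fold or 8-fold lower or 2-fold higher in resistant cells, and for 3 gene lists, with the number of windows in brackets. The interferon element reaches 47.4% of effectors and 24.1% of genes at least 8-fold lower, the E-box 22.4% of ribosome biogenesis genes, and the CArG box 17.4% of smooth muscle genes.

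In the IGF list 7 of 22 were higher (4 without the first or the second resistant array) and 6 lower. This was near the shares over all genes, 25.9% higher and 25.8% lower. Grb10, an adaptor that restrains the insulin and IGF1 receptors, had 909.6, 911 and 912 on the DMSO arrays and 30.3, 22.3 and 11.3 on the resistant arrays, without overlap (-4.67 ± 0.15). Igf2, a growth factor of fetal tissue, went from 389.7, 538 and 575 to 74.8, 61.5 and 23.5 (-2.97 ± 0.23), while the receptor Igf1r rose by 1.32 ± 0.10. For TGF-beta and BMP signalling 16 of 39 were lower and 10 higher. The activin subunits Inhbb and Inhba, the type II receptor Tgfbr2 and the inhibitor Smad7 changed by -3.80 ± 0.14, -2.34 ± 0.15, -1.41 ± 0.08 and -1.52 ± 0.13, and the secreted BMP antagonist Nog rose (1.41 ± 0.37). The YAP list had 9 of 25 lower and 6 higher, against the same shares over all genes. Its target Ankrd1 and the cofactor Vgll3 were lower (-1.65 ± 0.07 and -2.65 ± 0.09), and the factor Tead2 was higher (1.64 ± 0.10).

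Developmental pathways are set beside the shares over all genes, 25.9% higher and 25.8% lower. Wnt and Notch genes were called less often than that in both directions. A difference between the pathways was not tested. Hedgehog genes were higher in 6 of 14 and lower in 2 (1 lower in 10 of the 16 alternatives, among them the fits without the second or the third DMSO or the second or the third resistant array), with the receptor Ptch1 from 288, 374 and 277 to 641, 686 and 652 (1.05 ± 0.12), Gli2 at 1.12 ± 0.13, Gas1 at 1.15 ± 0.10 and Smo at 0.42 ± 0.07; Gli1 did not pass (0.78 ± 0.33) but was called in 6 alternatives. Wnt genes were higher in 7 and lower in 5 of 38, with a median of -0.08 that turned to 0.02 with 75th percentile centring; the receptors Fzd1 and Fzd8 were lower (-2.68 ± 0.20 and -1.88 ± 0.33). Notch genes were higher in 3 (5 with 75th percentile centring) and lower in 4 of 22, with a median of -0.08 that turned to 0.01 and 0.09 with 75th percentile centring and quantile normalization and to 0.08 without the third DMSO array; the target Hes1 fell (-1.73 ± 0.18). Of 76 homeobox and other developmental factors 24 were lower and 7 higher (12 higher without the third DMSO array). Foxf1 (-2.45 ± 0.21), Hoxc10 (-1.76 ± 0.30) and Runx1 (-1.71 ± 0.17) were lower, and Satb1 (1.98 ± 0.33) and Sox11 (1.31 ± 0.10) higher.

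In the smaller lists of surface proteins, G-protein-coupled receptors and their regulators were lower in 13 of 36 and higher in 2 (6 higher without the third DMSO array), and ion channels lower in 12 and higher in 5 of 39 (10 higher with 75th percentile centring). The median of the channels, -0.17, turned to 0.02 under quantile normalization and without the third DMSO array. Over all genes 25.8% were lower and 25.9% higher. Adgrg2, an adhesion receptor, changed by -3.26 ± 0.25, the calcium-activated potassium channel Kcnn4 by -3.29 ± 0.25 and the potassium channel Kcnh2 by 1.75 ± 0.25.

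The secretory pathway was lower over many small steps. Of 67 genes of translocation, glycosylation and vesicle transport 41 were lower and 5 higher (3 higher without the third resistant array), with a median of -0.33, and of 41 endoplasmic reticulum chaperone and unfolded protein response genes 21 were lower and 4 higher (2 without the second resistant array). Creb3l1, a membrane-bound factor that induces collagen secretion genes, fell from 715, 721 and 774 to 118, 99.2 and 92.0 (-2.67 ± 0.11), and its relatives Creb3 and Creb3l2 changed by -1.47 ± 0.08 and -1.08 ± 0.10. The retrieval receptor Kdelr3, the signal peptidase subunit Sec11c and the coat protein Sec24d changed by -1.86 ± 0.10, -1.95 ± 0.11 and -1.21 ± 0.10.

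Lysosome and autophagy genes changed to a small degree. Of 60 lysosome genes 23 were lower and 13 higher, with a median of -0.08 that turned to 0.02 with 75th percentile centring, and after 24 h of rapamycin 44 were higher and 2 lower (median 0.53). The proteases Ctsb and Ctso changed by -1.23 ± 0.09 and -2.10 ± 0.12 and the sulfatase Ids by -1.81 ± 0.08. Of 43 autophagy genes 22 were lower and 5 higher (3 without the third DMSO array or any 1 of the resistant arrays), with a median of -0.33. Wipi1, Gabarap and Ulk2, of the steps from initiation to membrane closure, changed by -1.53 ± 0.10, -1.12 ± 0.08 and -1.22 ± 0.12, and Ulk1, the initiating kinase, did not pass (-0.27 ± 0.14). Heat shock and cytosolic chaperone genes were higher in 20 of 44 and lower in 11, with the inducible Hspa1b from 557, 627 and 648 to 51.9, 78.8 and 70.4 (-2.93 ± 0.14) and the mitochondrial chaperone Trap1 at 1.43 ± 0.08. Proteasome subunits were higher in 12 and lower in 4 of 31, and their median of 0.15 turned to -0.02 under quantile normalization, where 9 were lower.

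Redox and iron genes changed in both directions. Of 46 glutathione and NRF2-linked genes 21 were lower and 14 higher. The aldo-keto reductase Akr1c13 had 479, 529 and 632 on the DMSO arrays and 5.92, 14.2 and 5.97 on the resistant arrays, with no overlap (-4.52 ± 0.17). The microsomal transferases Mgst1, Mgst2 and Mgst3, the extracellular dismutase Sod3 and the thioredoxin inhibitor Txnip were lower, -1.29 ± 0.12, -3.01 ± 0.12, -2.14 ± 0.11, -3.02 ± 0.24 and -2.59 ± 0.15, and Gsta4 was higher (1.56 ± 0.10). Of 19 iron genes 7 were lower and 6 higher, against 25.8% and 25.9% of all genes. Their median was -0.08 and turned to 0.02 with 75th percentile centring. The transferrin receptor Tfrc, which brings iron into dividing cells, rose from 729, 724 and 763 to 2470, 2225 and 2535 (1.68 ± 0.12), and the copper oxidases Cp and Heph, which load iron onto transferrin, fell (-2.69 ± 0.30 and -1.79 ± 0.33). Of 19 circadian clock genes 6 were higher (3 when a gene's probe sets were averaged) and 4 lower, near the shares over all genes, among the lower the repressor Nr1d1 (-1.16 ± 0.16).

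Cell division genes were close to the DMSO level while the drug was present. Of 61 mitosis genes 20 were higher and 9 lower. The lower count was 15 under quantile normalization, 14 in a fit of the 6 arrays alone and 5 with 75th percentile centring. Their median was 0.01, with -0.01 under quantile normalization and 0.11 with 75th percentile centring. Of 53 replication genes 17 were higher and 12 lower, with a median of 0.11. Here 5 were lower with 75th percentile centring or without the first resistant array, and 4 without the second DMSO array. After 24 h of rapamycin in sensitive cells all 61 mitosis genes and 52 of the 53 replication genes were called lower. The topoisomerase Top2a (0.01 ± 0.07), the mitotic kinase Plk1 (0.11 ± 0.09) and the helicase subunit Mcm2 (0.06 ± 0.14) did not pass. Cenpa, the histone of the centromere, rose from 1565, 1577 and 1474 to 3806, 3593 and 3781 (1.27 ± 0.09). The G1 list had 14 higher (9 when a gene's probe sets were averaged) and 14 lower of 35. Cyclin D2, Ccnd2, was lower (-1.13 ± 0.07), Skp2, which marks the inhibitor p27 for destruction, was higher (1.82 ± 0.08), and so was the inhibitor locus Cdkn2a, from 77.2, 64.8 and 142 to 235, 440.5 and 299.7 (1.64 ± 0.26).

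Chromatin genes were higher in 37 of 73 and lower in 12, with a median of 0.27. The de novo DNA methyltransferase Dnmt3b had 54.5, 40.4 and 8.92 on the DMSO arrays and 189.8, 295 and 281 on the resistant arrays, separate groups (2.53 ± 0.33). The remodeller Chd7 (2.13 ± 0.41), the histone methyltransferases Nsd2 (1.19 ± 0.12) and Kmt5a (1.24 ± 0.10) and the arginine methyltransferases Prmt1 (1.08 ± 0.10) and Carm1 (1.20 ± 0.09) were higher. A related pair of acetyltransferases parted: Kat2a rose (1.12 ± 0.08) and Kat2b fell (-1.38 ± 0.07). Suz12 of the Polycomb complex (0.10 ± 0.09) and the deacetylase Hdac1 (-0.03 ± 0.09) did not pass. Of 31 imprinted genes, which are expressed from 1 parental copy, 11 were lower and 6 higher; the median was -0.01 and turned to 0.09 with 75th percentile centring. Besides Grb10 and Igf2, Sgce went from 436, 536 and 346 to 20.7, 17.1 and 5.74 (-3.91 ± 0.19) and Impact changed by -1.92 ± 0.13, whereas Meg3 (0.15 ± 0.42), Mest (0.37 ± 0.45) and Dlk1 (0.02 ± 0.52) did not pass.

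The changes were then followed along the chromosomes, by placing 12642 tested genes in the order of the RefSeq gene table (GRCm38.p6) on 20 chromosomes. This is a description without a test, the regions were chosen after the values were seen, and DNA copy number was not analysed here. On 17 chromosomes, all except 15, 18 and X, the median change was -0.23 to 0.14. On the X chromosome 234 of 396 genes were lower and 18 higher, with a median of -0.61 and an interquartile range of -1.06 to -0.27. The 3 resistant arrays gave -0.64, -0.58 and -0.60 when each was set against the DMSO mean, and the 3 DMSO arrays 0.01, 0.01 and 0.02. On chromosome 18, 181 of 324 genes were lower and 17 higher, with a median of -0.55 and array values of -0.56, -0.54 and -0.48. After 24 h of rapamycin the chromosome medians were 0.00 to 0.10. The medians of X and 18 remained at -0.52 and -0.45 with 75th percentile centring, at -0.51 and -0.47 under quantile normalization, and at -0.56 and -0.48 without the third DMSO array.

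**Figure D4:**
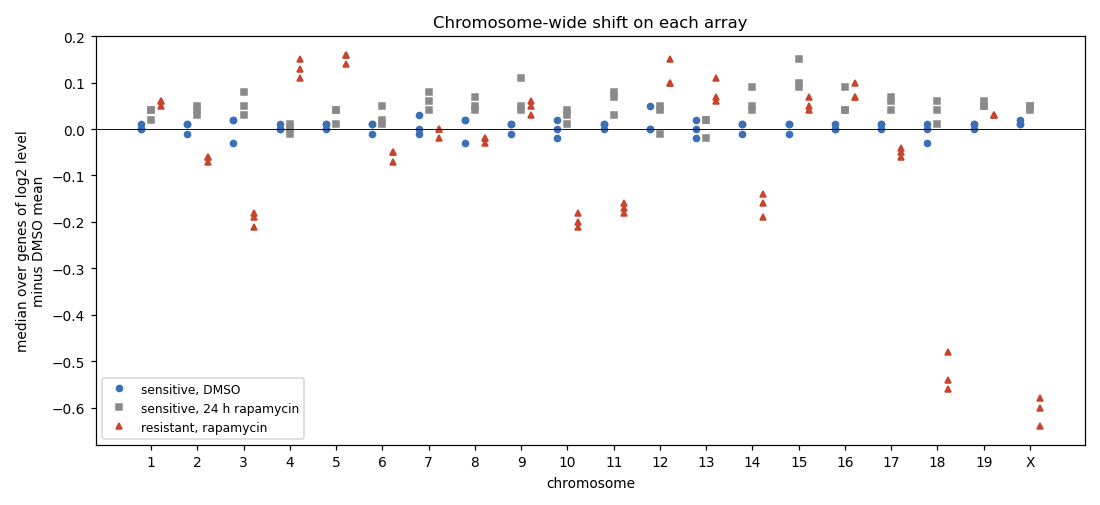
For each chromosome and array, the median over its tested genes of the log2 level minus the gene's mean over the 3 DMSO arrays; circles are DMSO arrays, squares sensitive cells after 24 h of rapamycin and triangles resistant cells. The resistant arrays lie at -0.48 to -0.64 for chromosomes 18 and X and between -0.21 and 0.16 for all others.

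Xist, the noncoding RNA that coats and silences 1 X chromosome in female cells, fell from 1115, 1210 and 878 to 23.9, 33.3 and 36.0 (-4.52 ± 0.14), with no overlap between groups. Without Xist the X chromosome counts were 233 lower and 18 higher of 395. The 3 runs of 15 neighbouring genes with the lowest running median of all chromosomes were all on X, at -1.24, -1.14 and -1.13, with 13, 12 and 13 of 15 lower. The first reached from Rap2c to Fhl1 and held Hprt, an enzyme of purine salvage (-0.49 ± 0.08), the surface proteoglycan Gpc4 (-1.58 ± 0.11) and Mbnl3, a splicing regulator (-4.12 ± 0.20). The second, from Grpr to Prps2, held Tmsb4x and Vegfd, named above. The third, from Iqsec2 to Acot9, held Magea6, whose signals were 813, 792 and 774 on the DMSO arrays and 7.78, 13.9 and 2.11 on the resistant arrays. A few X-linked genes opposed the trend: Capn6 (2.71 ± 0.21) and Bex2 (2.46 ± 0.19) were among the 40 largest rises.

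Chromosome 15 differed between the stretch that ends with Pvt1 and the rest. From its first tested gene through Pvt1, 85 of 139 genes (61.2%) were higher and 16 (11.5%) lower, with a median of 0.64. Beyond Pvt1, 70 of 363 (19.3%) were higher and 102 (28.1%) lower, with a median of -0.07. Among all places at which chromosome 15 could be divided into 2 stretches, the one between Pvt1 and the next tested gene, Gm20740, had the largest standardized difference in mean change between its sides. Myc and Pvt1, the last 2 genes of the first stretch, are its largest rises and enter that mean. The place of the division thus rests in part on their own values, and no place without them is given. The resistant arrays gave 0.63, 0.66 and 0.59 for the first stretch and -0.10, -0.08 and -0.07 for the second. Leaving out Myc and Pvt1 gave a median of 0.63, and leaving out the 11 genes of this stretch that are in the lists of growth genes gave 0.55 over 128 genes. The median of the first stretch was 0.73 with 75th percentile centring, 0.58 under quantile normalization and 0.61 without the third DMSO array. In sensitive cells after 24 h of rapamycin the medians of the 2 stretches were 0.17 and 0.07, against 0.034 over all genes.

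Single genes on the 2 sides of Myc varied. Toward the start of the chromosome Trib1 (0.84 ± 0.31), Nsmce2 (0.73 ± 0.07), Washc5 (0.77 ± 0.07), Sqle, of cholesterol synthesis (1.63 ± 0.08), Ndufb9 (0.69 ± 0.08), Tatdn1 (0.86 ± 0.10) and Rnf139 (0.62 ± 0.08) were higher. Mtss1, an actin-binding protein, did not pass (-0.08 ± 0.10). Trib1 lost its call under 6 alternatives, among them the fits without the first or the second DMSO array or the first or the third resistant array, and stood at -0.05 when its probe sets were averaged. On the other side Cyrib was higher (0.34 ± 0.08), although not called, at 0.04, when its probe sets were averaged. There Gm20740 (-0.98 ± 0.35), Tg (-1.18 ± 0.32), Asap1 (-0.63 ± 0.10), Phf20l1 (-0.63 ± 0.14), Ccn4 (-1.47 ± 0.09), St3gal1 (-1.48 ± 0.24) and Khdrbs3 (-1.41 ± 0.39) were lower, and Efr3a (-0.13 ± 0.09) and Ndrg1 (-0.02 ± 0.10) did not pass. Gm20740 lost its call without the third DMSO array or the first or the third resistant array. The size of the Myc change, 3.81, was well above that of its neighbours, of which Pvt1 was nearest. Of the 3 highest runs of 15 genes, 2 lay in the same stretch, with running medians of 1.37 and 0.92. The first, from Ranbp3l to Mtmr12, held 12 higher and 1 lower gene, among them Nadk2, which makes mitochondrial NADP (2.33 ± 0.09), the checkpoint gene Rad1 (2.00 ± 0.10), Skp2, Brix1, Tars and the natriuretic peptide receptor Npr3 (2.00 ± 0.12). Several of the genes given above lie in this stretch, namely Tars, Skp2, Brix1, Pop1, Slc25a32, Mrpl13, Rictor and Sqle. Skp2 and Sqle are in the G1 and cholesterol lists and were kept when the growth lists were left out.

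Divisions were seen on other chromosomes too. On chromosome 14 the first 131 genes had a median of 0.36 and the other 299 a median of -0.32. The last 106 genes of chromosome 4 had 0.58 and the first 152 of chromosome 5 had 0.44, including the third of the highest runs, from Lrrc17 to Fam126a (running median 0.89, 12 of 15 higher, none lower), with Orc5, Pus7 and Dnajc2 (1.31 ± 0.11, 1.91 ± 0.12 and 1.63 ± 0.10). The first 82 genes of chromosome 11 had -0.51. Each chromosome was divided where the standardized difference was largest. The median of the first side minus that of the second was 0.68 on chromosome 14, near the 0.71 on 15. On 4, 5 and 11 it was -0.52, 0.34 and -0.37. It was of like size on chromosomes 2 (-0.35), 6 (-0.40), 9 (-0.44), 10 (0.43) and 16 (0.39), where the smaller side held 421, 40, 23, 15 and 36 genes. In sensitive cells after 24 h of rapamycin the same differences were at most 0.10 in size on these chromosomes and on 15, except for -0.18 on chromosome 10.

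The list counts were repeated without some regions, while chromosome 14 and the other divided chromosomes were kept in. The regions left out, X, 18 and the first stretch of 15, held 551 of the 6581 calls. Without their genes 43 of 48 interferon effectors were lower, 19 of 24 smooth muscle genes and 14 of 19 collagens were lower, and 68 of 79 ribosome biogenesis genes, 37 of 50 of RNA polymerase III and tRNA modification and 17 of 30 of the Myc network were higher. Cadherin and junction genes went from 17 of 35 to 11 of 26 lower and in median from -0.66 to -0.20, autophagy genes from 22 of 43 to 16 of 37 lower, and the lower cholesterol genes from 4 of 29 to 1 of 24.

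**Figure D5:**
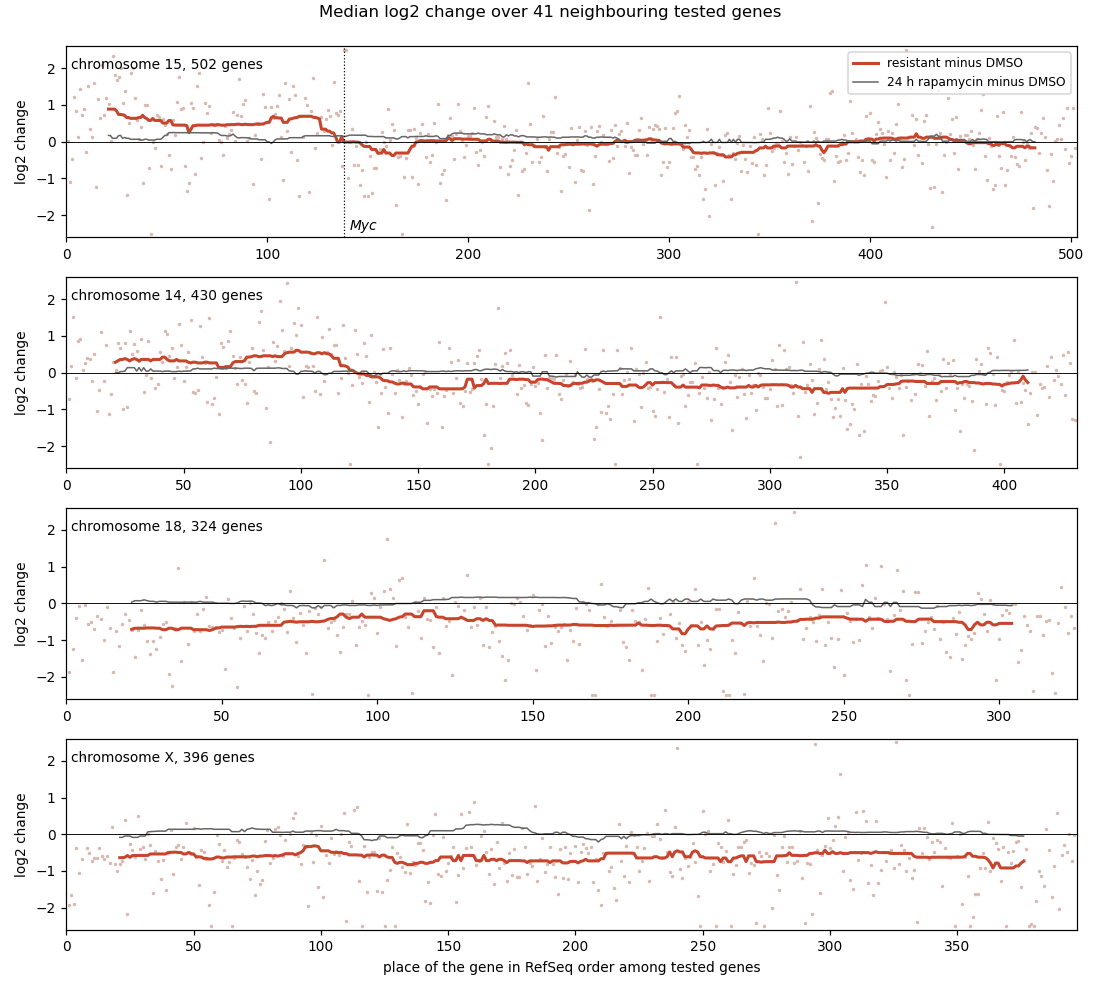
Median log2 change over 41 neighbouring tested genes along chromosomes 15, 14, 18 and X in gene order, for resistant cells (red) and sensitive cells after 24 h of rapamycin (grey), both against the DMSO arrays; small dots are single genes, drawn at the edge of the axis where they exceed 2.5, and the dotted line marks Myc. The red line falls to about 0 at Myc on chromosome 15 and crosses 0 on chromosome 14. It stays below 0 along all of chromosomes 18 and X. The grey line lies between -0.21 and 0.27 on these chromosomes and reaches 0.25 on chromosome 15 before Myc.

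A set of genes changed from a clear signal to one under the limit, or the reverse. Signals above 200 on all 3 DMSO arrays and below 22.2 on all 3 resistant arrays were found for 34 genes, and the opposite for 2, Prph and Tnnc2. These counts are not like for like either, since the filter and the third DMSO array act on them in the same way. Of the 34, 9 were in the interferon and MHC lists, which hold 93 of the 12715 tested genes. Outside the lists, Spinkl, a gene of the Kazal inhibitor family, had 1131, 1135 and 1227 and 0.502, 1.91 and 7.20, Gpr176, an orphan receptor, 499, 463 and 379 and 10.4, 7.86 and 11.8, and Emx2, a homeobox factor of the forebrain, 213, 252 and 310.5 and 2.38, 0.597 and 13.9. Of the interferon-linked genes outside the lists, Mndal went from 1244, 1237 and 949.7 to 9.04, 8.97 and 16.7 and Ifi204 from 306, 363 and 299 to 13.6, 12.7 and 17.8, both members of one family of DNA sensors. For these genes the separation of the groups follows from the limits used to find them.

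The 40 largest rises held genes of diverse function. Ptgds, which makes prostaglandin D2, had 17.4, 10.4 and 82.8 on the DMSO arrays, the third far above the others, and 504, 417 and 442 on the resistant arrays (3.40 ± 0.44), and Ptgis, which makes prostacyclin, rose by 2.38 ± 0.15. The elongation factor Tcea2 (3.42 ± 0.26), the repressor Tgif2 (3.20 ± 0.25), the water channel Aqp1 (2.87 ± 0.25), the lipid-binding protein Fabp7 (2.58 ± 0.11) and the meiotic genes Syce2 (3.11 ± 0.39) and Mnd1 (2.27 ± 0.16) were among them. Fabp7 went from 268, 273 and 297 to 1625, 1780 and 1852, with no overlap. Of the 40 largest falls 16 were in the interferon and MHC lists, which hold 93 of the 12715 tested genes. Others were Anxa8 (-4.56 ± 0.20), an annexin, Rnase4 (-4.49 ± 0.23), a secreted ribonuclease, and Evi2a (-4.23 ± 0.20).

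Where a gene had several probe sets they mostly pointed the same way. Of 5937 genes with at least 2 probe sets above the filter, 2456 had at least 2 called, 2330 of them in 1 direction and 126 in both. Of the genes named above, Canx was among the 126, and its value is uncertain. Members of families with near-identical sequence, such as the Oas1, Gbp, Trim30 and Akr1c genes, may share probes, and their levels were not told apart further.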

How the data were processed

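RNA of 9 samples, 3 a group, was hybridised to 1 array each. Per the submitters' processing notes the authors made the deposited intensity values with GCOS 1.4; further steps were not given in the sources used. The deposited signals are linear, and on each array their mean without the lowest and highest 2% was 250, so the arrays had been scaled alike. Of 45101 probe sets, 64 are controls, 34945 have exactly 1 gene symbol, 932 several and 9160 none. The brightest probe set stood for each gene, and genes with a mean above the 40th percentile of signal (22.2) were tested on log2(signal + 16).

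One limma model (version 3.58.1, R 4.3.3; lmFit, then eBayes with a trend) covered all 9 arrays, with Benjamini-Hochberg adjustment over 12715 genes. Alternatives changed the scaling, pseudocount, filter, probe set rule, variance trend, arrays fitted and replicate block, and left out each compared array. Arrays carry no read depth; their number limits the precision. Gene order and promoter windows came from RefSeq tables (GRCm38.p6). Groups followed the sample labels. The gene lists, and the comparison itself, were chosen with earlier results of these data known. Named genes were the 40 largest rises and falls (of genes whose arrays do not overlap, with the higher mean at or above the median of tested genes), up to 10 called members a list with the largest change, members that did not pass, genes of the outermost runs and next to Myc, genes switching between the limit and 200, cell type markers and genes of printed promoters; single members behind counts of 1 or 2, and Ifngr1, Isg20 and Pml, were added after their values were seen. One further gene list is not reported here. The fit was tested on simulated data.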

Additional observations from a re-analysis of the deposited data

Results flagged for a closer look

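Probe sets without a single gene symbol were left out of the comparison, and they carried signal as well. Of 3192 such probe sets above the filter limit that have no symbol, 399 were higher and 330 lower in resistant cells (22.8% in all, limma, adjusted over all probe sets above the filter). Of 657 probe sets with several symbols, 194 were higher and 163 lower (54.3%), and 24 of them were at least 8-fold lower. Their genes are not named here.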

How the results depend on the processing

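The counts of called genes stayed within 1.5 times of the reported ones under all 16 alternatives. With a pseudocount of 64 the genes at least 2-fold higher numbered 461 and those at least 2-fold lower 799, as a larger pseudocount shrinks changes of dim genes. Leaving out 1 of the 6 compared arrays gave 2933 to 3379 genes higher and 2937 to 3244 lower, and 664 to 768 at least 2-fold higher and 1197 to 1367 at least 2-fold lower. Replicate numbers did not pair the arrays: the correlation of deviations between same-numbered arrays was 0.014, -0.045 and -0.026, and a fit with the replicate number as a block gave 3240 higher and 3208 lower. Quantile normalization gave 3469 and 3091. Of 312 called genes named in the text 304 were called under every alternative in which they were tested; the other 8 were Canx, Cgas, Cyrib, Gm20740, Iqsec2, Lrrc17, Nol6 and Trib1. Canx turned to -0.06 and Trib1 to -0.05 when probe sets of a gene were averaged. Signal close to the filter limit sets the depth of the largest falls.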
